A study of Homo sapiens with 12 samples.

Results

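The effect of oleic acid on HEK293 cells that were loaded with iron was followed by setting 3 Oleic Acid + FAC libraries against 3 FAC libraries, which are 6 of the 12 poly-A RNA sequencing libraries of the study. The groups were taken from the sample titles alone, so the choice of libraries used no measured value. Cells of the Oleic Acid + FAC group received oleic acid together with ferric ammonium citrate (FAC), an iron salt, and cells of the FAC group received the iron salt without the fatty acid. The other 6 libraries, 3 from Oleic Acid cultures and 3 from Vehicle cultures, received no FAC and entered the same statistical fit. HEK293 is a human line made from embryonic kidney cells transformed with adenovirus DNA, and all 12 libraries come from this 1 line. The sources used here give no dose, time or make-up of the vehicle, and no group used here received ammonium citrate free of iron. Replicates are numbered in the titles without a statement that they were separate cultures, so a p-value weighs a difference against the spread of these libraries, which may be technical.

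Oleic acid is the most common monounsaturated fatty acid of animal fat. Inside cells it is activated to an acyl-CoA and is stored as triglyceride in lipid droplets, built into membrane phospholipids or carried into mitochondria by carnitine and oxidised. Fatty acids also bind the PPAR nuclear receptors, which pair with RXR on DNA and switch on genes of fat burning and storage. Ferroptosis, the form of cell death the study is about, follows from iron-dependent oxidation of polyunsaturated acyl chains in membrane phospholipids, and monounsaturated chains resist that oxidation. PLIN2, PDK4 and LPCAT1 mark the comparison: PLIN2 coats lipid droplets, PDK4 phosphorylates and so inhibits pyruvate dehydrogenase, which spares glucose when fat is burnt, and LPCAT1 attaches an acyl chain to lysophosphatidylcholine.

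On GRCh38 with GENCODE 29, all of these are protein-coding genes on the minus strand. PLIN2 (ENSG00000147872.9) lies at chr9:19108375-19149290, PDK4 (ENSG00000004799.7) at chr7:95583499-95596491 and LPCAT1 (ENSG00000153395.9) at chr5:1456480-1523977. PLIN2 and PDK4 are textbook PPAR-responsive genes, and all of these were given as markers of the comparison. The 250 bases before the RefSeq start of each are therefore shown. They come from the GRCh38.p14 table at chr9:19127493-19127742, chr7:95596517-95596766 and chr5:1523961-1524210, read 5′ to 3′ along the gene, with capitals on GGGTCA, a form of the nuclear receptor half-site, and on GGGCGG, the core of a GC box, or its reverse complement.

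PLIN2: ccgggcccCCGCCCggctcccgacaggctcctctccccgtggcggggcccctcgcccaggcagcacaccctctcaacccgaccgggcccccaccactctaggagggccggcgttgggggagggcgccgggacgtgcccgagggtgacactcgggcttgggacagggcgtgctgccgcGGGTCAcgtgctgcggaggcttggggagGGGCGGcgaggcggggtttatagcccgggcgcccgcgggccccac
PDK4: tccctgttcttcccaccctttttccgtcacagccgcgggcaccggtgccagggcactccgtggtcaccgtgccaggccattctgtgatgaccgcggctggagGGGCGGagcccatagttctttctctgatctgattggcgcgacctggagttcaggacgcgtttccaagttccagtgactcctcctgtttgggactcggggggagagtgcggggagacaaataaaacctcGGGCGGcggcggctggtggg
LPCAT1: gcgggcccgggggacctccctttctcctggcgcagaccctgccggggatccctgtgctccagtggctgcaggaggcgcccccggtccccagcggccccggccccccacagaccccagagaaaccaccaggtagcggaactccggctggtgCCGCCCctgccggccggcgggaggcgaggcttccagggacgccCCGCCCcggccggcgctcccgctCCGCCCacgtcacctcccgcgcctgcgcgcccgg

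The window of PLIN2 held GGGTCA at -73 from the start, and GGGCGG occurred in all of the windows, at -242 and -45 for PLIN2, at -148 and -20 for PDK4 and at -100, -57 and -34 for LPCAT1. No match overlapped another. Searched on both strands, GGGTCA was found in 12.1% and GGGCGG in 42.6% of the 35116 promoters of the table over the same window. The half-site AGGTCA (12.1% of promoters) and the direct repeat AGGTCANAGGTCA that contains it (0.0171%) were in none of the windows shown. A match of letters is a description and says nothing about binding.

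Totals of the 6 libraries ran from 15054800 to 18717397 estimated counts. The third Oleic Acid + FAC library stood apart from its group: mitochondrially encoded mRNAs took 12.1% of its counts and cytosolic ribosomal protein genes 13.6%, against 3.33% and 7.5%, and 11.2% and 12.3%, in the first and second. In the FAC libraries the mitochondrial share was 5.06%, 3.36% and 6.87%, and the ribosomal protein share 9.82% to 10.7%. Its short transcripts ran high: over genes (no independent replicates) the correlation between log2 transcript length and the distance from the group mean was -0.51, against 0.46 and 0.27 in the first and second Oleic Acid + FAC libraries and -0.03, 0.40 and -0.40 in the FAC libraries. The list medians and the named genes are therefore given with and without that library. TFRC, the transferrin receptor whose mRNA iron-replete cells degrade, checked the iron labels: it had 16.3, 14.0 and 13.3 CPM in Oleic Acid + FAC and 19.7, 22.1 and 16.8 CPM in FAC, against 57.8 to 134 CPM in the 6 libraries without FAC. CPM are counts scaled to a common library total by TMM.

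In iron-loaded cells with oleic acid against those without it, 0 of 14209 genes passed a Benjamini-Hochberg adjusted p of 0.05 in edgeR's quasi-likelihood test (0% called). The smallest adjusted p was 0.406, that of PLIN2. At an unadjusted p under 0.05, 306 genes were higher (2.15%) and 270 lower (1.9%) in Oleic Acid + FAC than in FAC, 576 in all (4.05%), where about 710 would be reached by chance. Without the third Oleic Acid + FAC library 14445 genes were tested and again 0 passed, with 92 higher (0.637%) and 105 lower (0.727%), 197 in all (1.36%), at the unadjusted threshold. Single libraries moved the number at that threshold further, from 188 without the second FAC library to 1505 without the first Oleic Acid + FAC library, with 0 genes passing after adjustment in each case. limma-voom also called 0 genes, and DESeq2, run without the filter on low counts, called 1, PLIN2. The replicate number was also used as a block, a pairing inferred from these same libraries and not stated in the labels. With it 1631 genes had an unadjusted p under 0.05 (11.5%), 951 of them higher (6.69%) and 680 lower (4.79%). Of these, 0 passed after adjustment. Because no gene passed in the edgeR fits named so far, the values below describe these libraries, and higher or lower refers to levels. The alternative edgeR fits that did call genes are given below with those genes.

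PLIN2 had 16.8, 14.8 and 16.6 CPM in the Oleic Acid + FAC libraries and 9.62, 8.63 and 10.1 CPM in the FAC libraries. Every Oleic Acid + FAC library was above every FAC library, and the gap between them was wider than the range within either group. The log2 fold change was 0.76 (SE 0.12) in the fit of all libraries and 0.74 without the third Oleic Acid + FAC library, with adjusted p = 0.406 and 0.949 in edgeR. In DESeq2 without the low-count filter it passed (log2 fold change 0.76, SE 0.14, adjusted p = 0.0014).

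PDK4 had 10.2, 10.1 and 8.38 CPM in Oleic Acid + FAC and 5.53, 5.42 and 4.30 CPM in FAC. The groups did not overlap, and the third library was the lowest in each. Its log2 fold change of 0.91 (SE 0.21, edgeR adjusted p = 0.707) became 1.00 without the third Oleic Acid + FAC library.

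LPCAT1, the most abundant of the markers in CPM, had 477, 362 and 416 CPM in Oleic Acid + FAC and 306, 234 and 247 CPM in FAC. Again the groups did not overlap, and the first library was the highest and the second the lowest on both sides. The log2 fold change was 0.67 (SE 0.16, edgeR adjusted p = 0.707), and 0.68 without the third Oleic Acid + FAC library. With the transcript length trend removed and the replicate number as a block, LPCAT1 was the 1 gene called (0.73, SE 0.080, adjusted p = 0.00783).

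**Figure D1:**
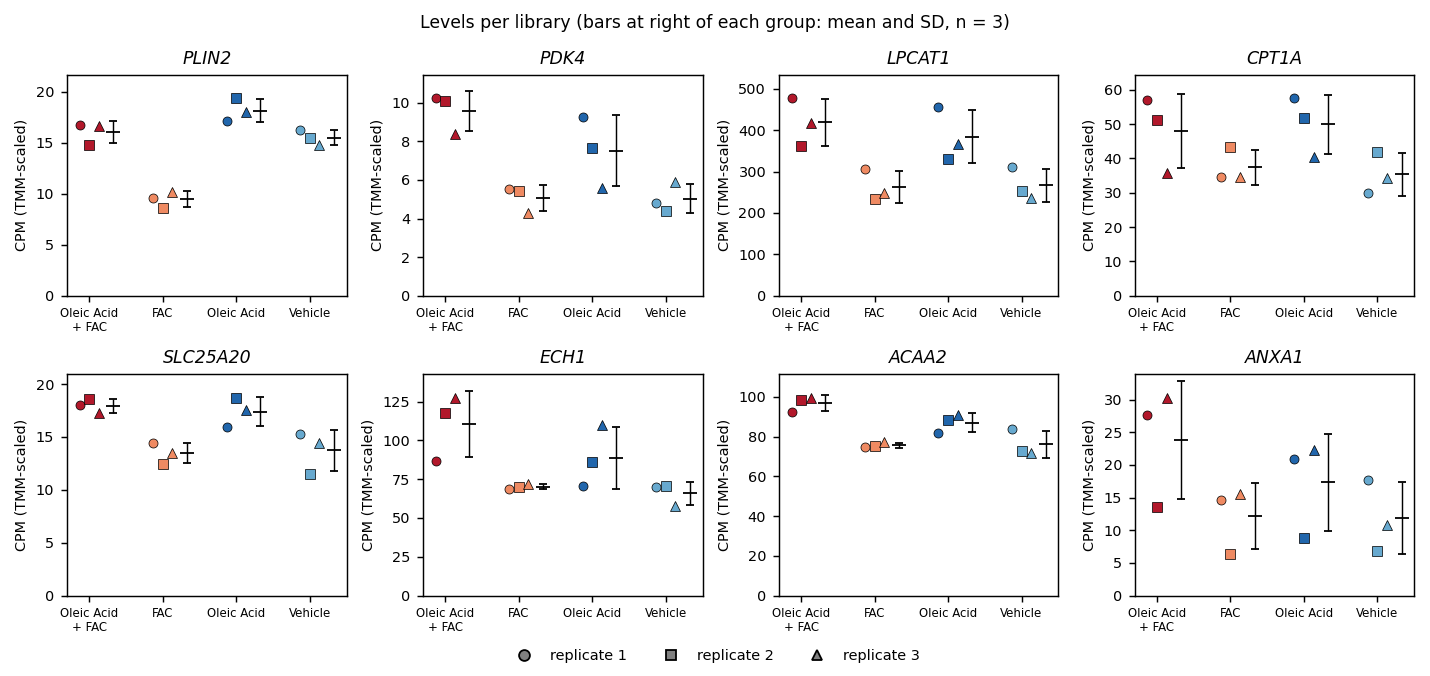
TMM-scaled CPM of 8 genes in each library (points; shape gives the replicate number) with the mean and SD of each group of 3 (bars), for Oleic Acid + FAC, FAC, Oleic Acid and Vehicle from left to right. PLIN2, PDK4, LPCAT1, SLC25A20, ECH1 and ACAA2 do not overlap between Oleic Acid + FAC and FAC, while CPT1A and ANXA1 do.

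Genes of mitochondrial fatty acid oxidation were higher with oleic acid more often than lower. Of 27 in the list, all of them tested, 20 had a positive fold change, against 7165 of the 14209 genes tested. At an unadjusted p under 0.05, 5 were higher and 1 lower, against 2.15% and 1.9% of all genes. With no overlap between the groups 8 were higher, against 4.61% of all genes (5.92% were lower with no overlap). After adjustment 0 passed. The median log2 fold change was 0.15, and 0.14 without the third Oleic Acid + FAC library, against 0.00 over all genes in both fits. It was 0.07 with the transcript length trend removed, and 0.06 with the replicate block as well. Without the third Oleic Acid + FAC library 5 were still higher at the unadjusted threshold, against 0.637% of all genes. In that fit 9 did not overlap, against 7.49% of all genes (and 8.2% lower). Members and lists were chosen with earlier results of these data known, so the counts are no independent evidence of direction.

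Entry into mitochondria is set by CPT1A, which links long acyl chains to carnitine at the outer membrane, and by SLC25A20, which carries the acylcarnitines through the inner one. SLC25A20 had 18.0, 18.6 and 17.3 CPM in Oleic Acid + FAC and 14.4, 12.5 and 13.5 CPM in FAC, with no overlap (log2 fold change 0.42, SE 0.13; 0.45 without the third Oleic Acid + FAC library, and 0.31 with the length trend removed). CPT1A had 56.9, 51.1 and 35.9 CPM in Oleic Acid + FAC and 34.5, 43.3 and 34.6 CPM in FAC: the first and second Oleic Acid + FAC libraries were above all FAC libraries, and the third was within their range. Its log2 fold change was 0.36 (SE 0.19) with that library, 0.53 without it and 0.22 without the first Oleic Acid + FAC library. It was 0.48 with the length trend removed. CPT1B, the muscle form of the same enzyme, went the other way, with 3.26, 5.56 and 4.97 CPM in Oleic Acid + FAC and 4.88, 12.1 and 6.74 CPM in FAC, groups that overlapped (-0.79; -0.84 without the third Oleic Acid + FAC library).

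Within the matrix, ECH1, an isomerase that repositions double bonds of unsaturated chains, had 86.6, 118 and 127 CPM in Oleic Acid + FAC and 68.7, 70.1 and 71.9 CPM in FAC. The FAC libraries lay close together and the first Oleic Acid + FAC library was the nearest to them (log2 fold change 0.65, SE 0.17; 0.54 without the third Oleic Acid + FAC library, and 0.46 with the length trend removed). ACAA2, the thiolase of the last step of the cycle, had 92.3, 98.7 and 99.5 CPM in Oleic Acid + FAC and 74.7, 75.2 and 77.2 CPM in FAC (0.36; 0.34 without the third library, and 0.25 with the length trend removed). These groups were narrow and separate. Exons of ECH1 overlap AC008982.1 and those of ACAA2 overlap AC090227.1, in both cases on the same strand. DECR1, a reductase for polyunsaturated chains, and ETFB, a subunit of the flavoprotein that takes up electrons from acyl-CoA dehydrogenases, had fold changes of 0.31 and 0.33 (0.27 and 0.34). The subunits HADHA and HADHB of the trifunctional protein, at -0.09 and 0.03, and the acyl-CoA dehydrogenase ACADM, at 0.12, differed by less than 1 SE or little more (0.02, 0.06 and 0.06 without the third library).

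Among 29 PPAR-responsive genes, a list that shares members with the oxidation list, 20 were abundant enough to test. Of these, 5 were higher at the unadjusted threshold and 0 lower, against 2.15% of all genes higher. PLIN2 and PDK4 were given as markers, and ECH1, ACAA2 and SLC25A20 were already counted in the oxidation list. The count is thus no independent evidence of direction. With ACADVL, 6 of the 20 were higher without overlap, against 4.61% of all genes. The list median was 0.07, 0.07 without the third Oleic Acid + FAC library and 0.04 with the length trend removed. The other 9 include fatty acid responders of liver, muscle and fat: ANGPTL4, FGF21, CD36 and PLIN5 reached at most 3, 5, 8 and 9 counts in a library. The peroxisome-dividing PEX11A had a fold change of 0.01 (-0.05 without the third Oleic Acid + FAC library). In the peroxisomal list, 0 of 17 tested members passed the unadjusted threshold in either direction (median 0.07; 0.08 without the third library).

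PLIN2 was the 1 of 15 tested lipid droplet genes past the unadjusted threshold (0 lower), against 2.15% of all genes higher. With no overlap 1 was higher and 1 lower, against 4.61% and 5.92% of all genes. The list median was 0.07, 0.02 with the length trend removed and 0.06 without the third Oleic Acid + FAC library. PLIN3, another coat protein, had a fold change of 0.01 (0.13 without that library), the triglyceride lipase PNPLA2 0.15 (0.08), and HILPDA, an inhibitor of that lipase, 0.15 (0.08). Of 14 triglyceride and cholesteryl ester synthesis genes 0 passed the unadjusted threshold (median -0.08; -0.01), with DGAT1 at 0.10 (0.11) and DGAT2 at 0.26 (0.30), the enzymes that add the last acyl chain. Fatty acid uptake and activation had 0 of 17 (median 0.10; 0.07); within it ACSL3, which activates oleic acid at droplets and the endoplasmic reticulum, had 83.9, 74.0 and 69.3 CPM in Oleic Acid + FAC and 74.3, 90.3 and 78.2 CPM in FAC, groups that overlapped (-0.10, and -0.03 without the third Oleic Acid + FAC library; -0.18 without the first, -0.15 without the first FAC library and -0.01 without the second; 0.00 with the length trend removed).

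Of 31 phospholipid genes, 2 were past the unadjusted threshold and higher, against 2.15% of all genes: LPCAT1, given as a marker of the comparison, and MBOAT7. With no overlap 2 were higher and 2 lower, against 4.61% and 5.92% of all genes. The list median was 0.00, and 0.04 without the third Oleic Acid + FAC library. MBOAT7 puts arachidonic acid into phosphatidylinositol. It had 62.3, 61.5 and 62.8 CPM in Oleic Acid + FAC and 52.6, 50.0 and 51.7 CPM in FAC, 2 tight and separate groups. The fold change of MBOAT7 was small, at 0.27 (SE 0.13) with all libraries. Without the third Oleic Acid + FAC library it was again 0.27, but no longer past the unadjusted threshold. Among 26 fatty acid synthesis genes 1 was past it, against 2.15% of all genes higher. It was the elongase ELOVL6 (0.25; 0.16 and no longer past the threshold without the third Oleic Acid + FAC library). The list median was 0.01 (0.05). SCD, the desaturase that makes oleic acid, had 541, 560 and 374 CPM in Oleic Acid + FAC and 558, 621 and 521 CPM in FAC. Of these, the third Oleic Acid + FAC library alone was well below the FAC libraries, and the log2 fold change of -0.21 (SE 0.16) was -0.04 without it, -0.31 without the second, -0.13 without the second FAC library and -0.07 with the length trend removed. Of 25 cholesterol genes 0 passed the unadjusted threshold (median 0.02; 0.01) and of 9 LXR targets 0 (median -0.11; -0.05).

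Of 20 tested genes that limit ferroptosis, 8 had a positive and 12 a negative fold change. GSS, the enzyme that completes glutathione, was the 1 past the unadjusted threshold, against 2.15% of all genes higher (list median -0.04; -0.04 without the third Oleic Acid + FAC library, and 0.02 with the length trend removed). Without overlap between the groups, 2 were lower, and 3 without that library, against 5.92% and 8.2% of all genes. GSS had 48.6, 57.7 and 47.9 CPM in Oleic Acid + FAC and 39.9, 43.8 and 41.8 CPM in FAC, without overlap (0.30, SE 0.13; 0.35; 0.18 with the length trend removed). GPX4, which reduces phospholipid hydroperoxides, had 253, 319 and 411 CPM in Oleic Acid + FAC and 268, 243 and 277 CPM in FAC; the first Oleic Acid + FAC library was within the FAC range and the third was the highest (0.32, SE 0.19; 0.13 without the third library, and -0.00 with the length trend removed). AIFM2, which regenerates the antioxidant form of coenzyme Q, had 14.1, 11 and 16.3 CPM in Oleic Acid + FAC and 16.1, 9.48 and 13.4 CPM in FAC, with overlap (0.08; -0.05 without the third library, -0.10 without the second FAC library, 0.27 without the first FAC library and 0.23 without the second Oleic Acid + FAC library). SLC7A11, the cystine importer, stood at -0.11 (0.03 without the third library) and ACSL4, which activates polyunsaturated fatty acids, at -0.18 (-0.13), both within about 1 SE of 0.

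Of 15 ferroptosis promoting genes and markers 1 was past the unadjusted threshold, CHAC1, against 2.15% of all genes higher. CHAC1, a glutathione-degrading enzyme, had 2.62, 2.84 and 6.18 CPM in Oleic Acid + FAC and 1.30, 1.95 and 2.86 CPM in FAC (0.91; 0.42 without the third library; list median 0.02; 0.07). Of 16 iron genes 1 was past that threshold, the metal importer SLC39A8 (0.27; 0.18; list median 0.02; 0.06), against the same 2.15% of all genes. Neither CHAC1 nor SLC39A8 was past it without the third library. TFRC (-0.42, SE 0.25; -0.36) did not overlap between the groups but was not past it. The ferritin chains FTH1 and FTL were at 0.26 and 0.40, and at 0.10 and 0.15 without the third library.

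Of the stress programmes, none of 18 NRF2 targets (median 0.05; 0.01 without the third Oleic Acid + FAC library), 20 endoplasmic reticulum chaperone and unfolded protein response genes (0.03; 0.02) or 15 heat shock genes (0.08; -0.09) was past the unadjusted threshold. In the integrated stress response, CHAC1 was higher and SESN2 lower among 24, against 2.15% and 1.9% of all genes (list median 0.10; 0.05). Neither was past the threshold without the third library. KLF10, a transcription factor among 28 immediate-early genes, was the 1 past it (0.23; 0.19; list median 0.02; 0.00), against 2.15% of all genes higher. KLF10 had 67.8, 67.6 and 74.7 CPM in Oleic Acid + FAC and 58.3, 56.0 and 64.5 CPM in FAC. It was not past the threshold without the third library. KDM6B, a histone demethylase that needs iron and 2-oxoglutarate, was the 1 of 36 such dioxygenases past it, against 1.9% of all genes lower. KDM6B was lower, with 35.9, 42.1 and 34.8 CPM in Oleic Acid + FAC and 48.6, 48.6 and 44.4 CPM in FAC (-0.33, SE 0.13; -0.27 and not past the threshold without the third library; -0.13 with the length trend removed; list median -0.11; -0.03). Of these 36, 5 were lower with no overlap in either fit, against 5.92% and 8.2% of all genes. Of 4 tested metallothionein and zinc export genes 2 were past the unadjusted threshold, MT1X (0.71; 0.29) and MT1F, against 2.15% of all genes higher. In the fit without the third library 0 were past it. This list holds short transcripts (median length 755 bases). Its median fold change was 0.63, 0.29 without that library and 0.26 with the length trend removed. MT1F was at 4, 6 and 11 counts in Oleic Acid + FAC and 2, 3 and 0 counts in FAC, too few for a fold change.

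Messenger RNAs of the ribosome and the respiratory chain had mostly positive fold changes, whose size differed between the libraries. All 79 cytosolic ribosomal protein genes had a positive fold change, 27 of them past the unadjusted threshold (against 2.15% of all genes higher and past it), with a median of 0.44; without the third Oleic Acid + FAC library 0 were past it and the median was 0.24. Of these genes 26 did not overlap between the groups, and 27 without that library, against 4.61% and 7.49% of all genes. Of 75 nuclear oxidative phosphorylation subunits 70 were positive, against 7165 of the 14209 genes tested. Past the unadjusted threshold were 3, COX6C, COX8A and COX4I1 of complex IV, against 2.15% of all genes, and without the third library 0 were (median 0.34; 0.15). Of the 75, 6 did not overlap, and 8 without that library, against 4.61% and 7.49% of all genes. The ratio within a replicate number was lowest in the first pair for COX8A (0.08, 0.66 and 0.63 in replicates 1, 2 and 3) and COX4I1 (0.03, 0.57 and 0.71), and for the ribosomal RPS18 (0.22, 0.61 and 0.63) and RPS15A (0.15, 0.45 and 0.70). With the replicate number as a block, 64 ribosomal protein genes, 36 respiratory chain subunits and 4 mitochondrially encoded mRNAs were past the unadjusted threshold, all higher, against 6.69% of all genes higher under the block.

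The 13 mitochondrially encoded mRNAs had a median of 0.80, and 0.13 without the third library, and 0 were past the threshold in either fit. MT-CO1, the catalytic subunit of complex IV, spread more within groups than between them, with 10714, 26009 and 49076 CPM in Oleic Acid + FAC and 17598, 9930 and 23062 CPM in FAC. These lists hold short transcripts (median lengths of 831, 784 and 720 bases for nuclear subunits, mitochondrial mRNAs and ribosomal proteins, against 2805 for all genes). Across 12223 genes whose mean log2 CPM was 1 or more, fold change and log2 length correlated at -0.60, and at -0.35 without the third Oleic Acid + FAC library, genes being no independent replicates. The 2445 genes of up to 1676 bases had a median fold change of 0.25 (0.10 without that library) and the 2445 genes of 4956 bases or more -0.19 (-0.08). With a length trend removed from each library the list medians were 0.11 for ribosomal proteins, 0.05 for nuclear subunits and 0.41 for mitochondrial mRNAs, and the fold changes of COX8A, COX4I1 and RPS18 were 0.10, 0.12 and 0.15.

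**Figure D2:**
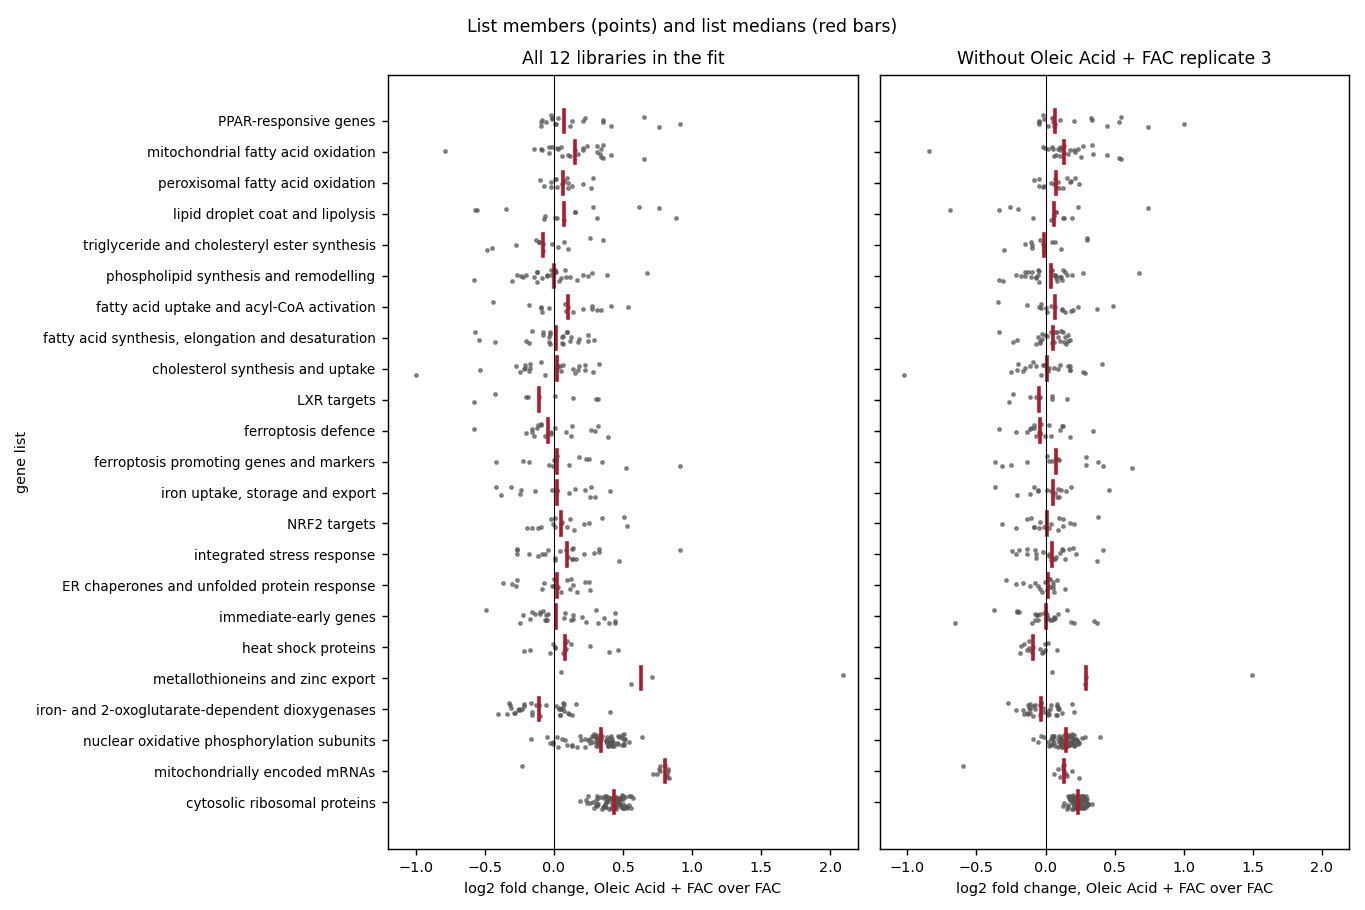
Log2 fold change, Oleic Acid + FAC over FAC, of the tested members of 23 gene lists (grey points) and each list's median (red bar), with all libraries on the left and without Oleic Acid + FAC replicate 3 on the right. Ribosomal, respiratory chain and mitochondrially encoded genes sit to the right of 0 on the left panel (medians 0.44, 0.34 and 0.80) and nearer 0 on the right panel (0.24, 0.15 and 0.13), and fatty acid oxidation is at 0.15 and 0.14 (0.07 with the length trend removed); the rightmost metallothionein point, MT1F, rests on 11 counts or fewer per library.

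**Figure D3:**
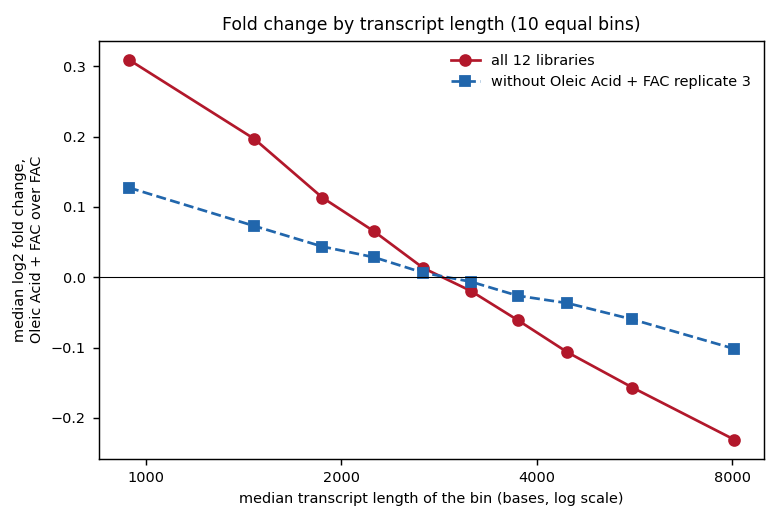
Median log2 fold change, Oleic Acid + FAC over FAC, in 10 bins of genes by transcript length (log axis, bases), with all libraries (red, solid) and without Oleic Acid + FAC replicate 3 (blue, dashed). The medians run from 0.31 in the shortest bin to -0.23 in the longest, and from 0.13 to -0.10 without that library.

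Beyond the lists, 40 genes were higher and 40 lower by 1 rule: no overlap, an unadjusted p under 0.05 with and without the third Oleic Acid + FAC library, and a mean log2 CPM of 1 or more. Of all genes tested, 12326 had such a mean. The rule draws on the 576 genes (4.05%) with an edgeR unadjusted p under 0.05, where about 710 would be reached by chance. It therefore does not set these genes apart from chance. PDK4, PLIN2, ECH1 and LPCAT1 were among the 12 with the highest fold change. SCHIP1, a binding partner of the tumour suppressor schwannomin, had 3.26, 4.43 and 4.26 CPM in Oleic Acid + FAC and 1.5, 2.32 and 2.03 CPM in FAC (log2 fold change 1.02, SE 0.25; 0.97 without the third library); its exons overlap the read-through gene IQCJ-SCHIP1. MGST1, a membrane-bound glutathione transferase and peroxidase, had 4.30, 4.99 and 6.74 CPM in Oleic Acid + FAC and 2.34, 2.95 and 3.40 CPM in FAC (0.88, SE 0.28; 0.68; 0.58 with the length trend removed). Both are low genes, and their lack of overlap was a condition of the rule that named them.

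SHISA3 (0.72; 0.57 without the third library) and the transcription factor SOX21 (0.71; 0.73) were likewise higher at 2.61 to 5.32 CPM in Oleic Acid + FAC. GSAP (0.64; 0.66), TMEM150A (0.69; 0.80, and 0.41 without the second Oleic Acid + FAC library) and C11orf1 (0.74; 0.51, and 0.45 with the length trend removed) overlap a gene on the other strand, from which unstranded reads would not be told apart. SMIM11A had the highest fold change (1.25; 1.41 without the third library), with 19.1, 29.1 and 16.4 CPM in Oleic Acid + FAC and 4.03, 9.90 and 13.2 CPM in FAC, and its reads may be shared with a near-identical copy, so its value is uncertain.

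CACNA1C, the pore subunit of a voltage-gated calcium channel, was the lower gene with the smallest unadjusted p among the named ones: 4.19, 4.26 and 3.05 CPM in Oleic Acid + FAC and 6.63, 8.48 and 6.74 CPM in FAC, without overlap (-0.92, SE 0.22; -0.79 without the third library). Antisense genes overlap it. ALG11, a mannosyltransferase of protein glycosylation, had 32.3, 20.2 and 12.7 CPM in Oleic Acid + FAC and 38.9, 44.9 and 35.2 CPM in FAC (-0.86; -0.59), and shares exons with UTP14C. HOOK2 (-0.82; -0.73), a dynein adaptor, overlaps RTBDN and, on the other strand, JUNB. HTD2 (-0.67; -0.60), of mitochondrial fatty acid synthesis, overlaps RPP14. The remaining low genes are hard to assign: HSPE1-MOB4 (-1.64; -1.26) and RTEL1-TNFRSF6B (-1.38; -1.51) are read-through genes. ZNF887P (-1.08; -1.01), SMG1P3 (-1.04; -1.31) and AC018638.4 (-0.99; -0.93, and -0.56 without the second FAC library) are pseudogenes. ZNF587 (-0.87; -0.69) and AGAP4 (-0.59; -0.67) are members of families of close copies, and AC069288.1 (-1.13; -1.12) had no entry in the annotation used.

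Libraries of the same number could be set against each other. For PLIN2 the log2 ratio of Oleic Acid + FAC over FAC was 0.79, 0.77 and 0.71 in replicates 1, 2 and 3, for PDK4 0.88, 0.88 and 0.94, and for LPCAT1 0.64, 0.63 and 0.75. The spread of these ratios was an SD of 0.046, 0.038 and 0.067. MBOAT7 (0.24, 0.30 and 0.28), ACAA2 (0.31, 0.39 and 0.37) and KLF10 (0.22, 0.27 and 0.21) were as even with smaller ratios. Others depended on the number: CPT1A had 0.72, 0.24 and 0.05, GPX4 -0.08, 0.40 and 0.57, and MT-CO1 -0.72, 1.39 and 1.09. The first pair thus had the highest ratio for CPT1A and the lowest for GPX4 and MT-CO1.

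ANXA1, a phospholipid-binding protein that was singled out after its values were seen, shows what the numbers change. It had 27.6, 13.6 and 30.2 CPM in Oleic Acid + FAC and 14.6, 6.42 and 15.6 CPM in FAC, groups that overlap because both second libraries were low. Its ratios within a number were 0.91, 1.07 and 0.95. In a fit of the 6 libraries alone with the replicate block, an alternative added after seeing the data, ANXA1 passed (log2 fold change 0.98, SE 0.13, edgeR adjusted p = 0.0381), against an unadjusted p of 0.0467 in the fit of all 12 libraries without the block (0.97; 0.76 without the third Oleic Acid + FAC library).

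**Figure D4:**
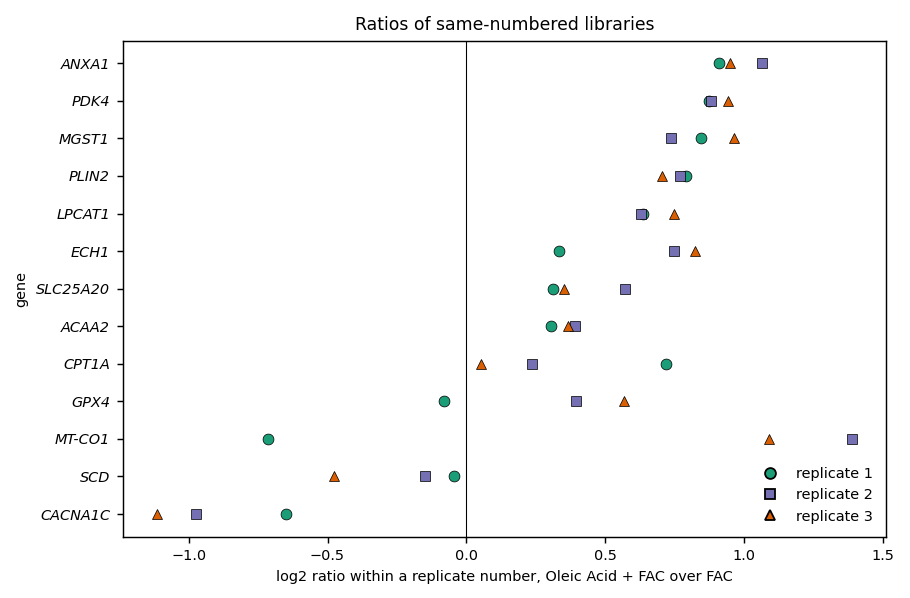
Log2 ratio of Oleic Acid + FAC over FAC between libraries of the same replicate number, for 13 genes (rows; shape and colour give the number). The points of PLIN2, PDK4, LPCAT1 and ACAA2 lie close together right of 0, while those of CPT1A spread from 0.05 to 0.72 and those of MT-CO1 from -0.72 to 1.39.

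Oleic Acid against Vehicle shares no library with this comparison and shows the same genes without FAC; 0 genes passed there in edgeR and 118 (0.83%) had an unadjusted p under 0.05. There PLIN2 had 17.1, 19.4 and 18.0 CPM in Oleic Acid and 16.2, 15.5 and 14.8 CPM in Vehicle, a log2 fold change of 0.23 (SE 0.12) beside 0.76 with FAC. The FAC libraries were thus below the other 9 libraries for PLIN2, and the Oleic Acid + FAC and Vehicle libraries overlapped. The difference between both effects, the interaction, was 0.53 (SE 0.17) for PLIN2, with an edgeR adjusted p of 1.00; it passed for 0 of 14209 genes (0%), and 116 had an unadjusted p under 0.05 (0.816%).

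PDK4 had 9.28, 7.68 and 5.60 CPM in Oleic Acid and 4.82, 4.40 and 5.89 CPM in Vehicle (0.58, beside 0.91 with FAC). For LPCAT1 the values without FAC were 385 ± 65.0 CPM in Oleic Acid and 267 ± 40.0 CPM in Vehicle (SD, n = 3 each), a log2 fold change of 0.53 beside 0.67. CPT1A had 0.50 beside 0.36, SLC25A20 0.34 beside 0.42, ECH1 0.43 beside 0.65, ACAA2 0.19 beside 0.36 and SCHIP1 0.73 beside 1.02. These were positive on both sides. MGST1 was at -0.23 without FAC beside 0.88 with it (interaction 1.11, SE 0.40) and CACNA1C at -0.17 beside -0.92 (-0.75, SE 0.30), neither past the adjusted threshold.

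Of the 40 genes that were higher by the rule above, 36 also had a positive fold change in Oleic Acid against Vehicle (90%), and of the 40 lower ones 29 a negative one (72.5%), against 69.5% and 70.2% of all genes. The third Oleic Acid library had the same tilt to short transcripts as the third Oleic Acid + FAC library, with a correlation of -0.67. Over 12326 genes, which are not independent replicates, the fold changes with and without FAC correlated at 0.53 with all libraries and at -0.00 without those 2 libraries. With Oleic Acid against Vehicle taken from a fit without those 2 libraries, 28 of 40 (70%) and 23 of 40 (57.5%) kept the sign. Their sign with FAC still came from the fit of all libraries. For all genes, 44.9% and 50.1% had the same sign, with the third Oleic Acid + FAC library left out of the sign with FAC too. These shares are therefore not like measures.

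**Figure D5:**
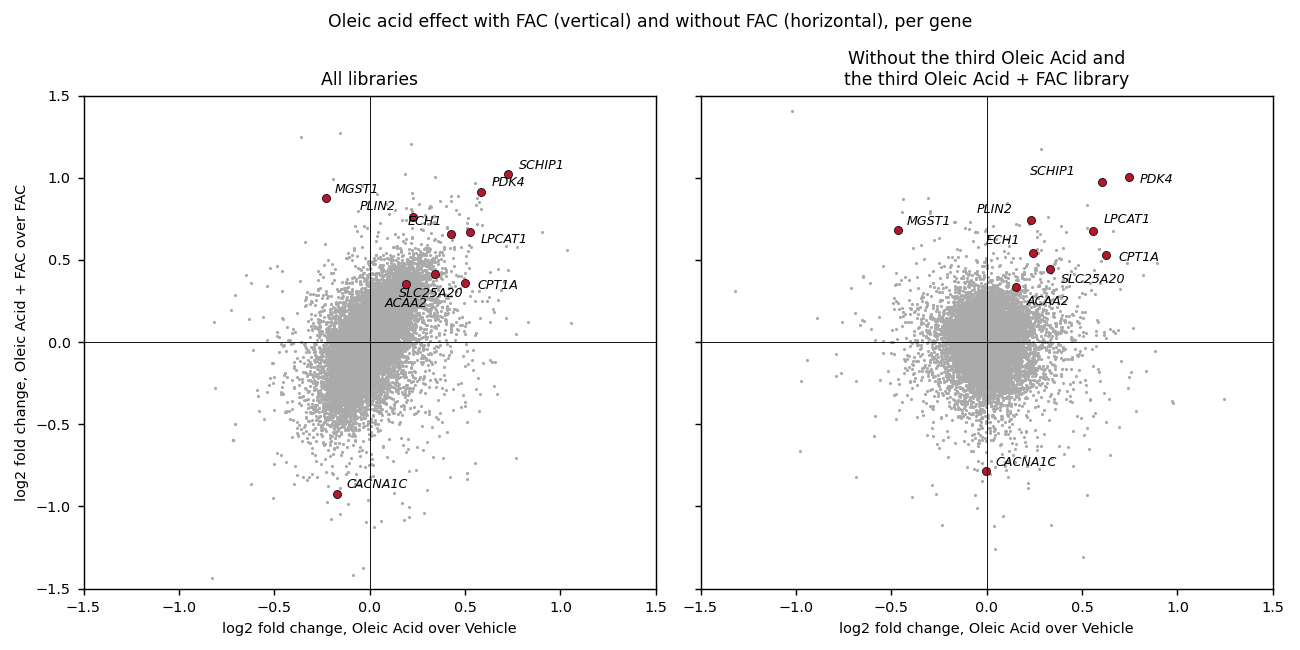
Log2 fold change per gene of Oleic Acid + FAC over FAC (vertical) against Oleic Acid over Vehicle (horizontal) for genes whose mean log2 CPM was 1 or more, with all libraries (left) and with the third library of Oleic Acid and of Oleic Acid + FAC left out (right); 10 named genes are red, and genes past 1.5 in either direction are off the axes. The grey cloud is tilted on the left (correlation 0.53) and not on the right (-0.00), where PDK4, LPCAT1, CPT1A and SCHIP1 still lie in the upper right, and MGST1 lies left of 0.

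Among deposited transcripts, 1 of 51464 tested passed in edgeR (0.00194%; 2042, or 3.97%, at an unadjusted p under 0.05). It was CRAMP1-202, a protein-coding transcript of 7772 bases of CRAMP1, a chromatin protein, with 0 counts in all Oleic Acid + FAC libraries and 9.94, 19.9 and 9.07 CPM in the FAC libraries. Set against a floor of 3 counts (0.207 CPM), the FAC mean of 13.0 CPM was 62.5-fold higher (edgeR adjusted p = 0.0138). That ratio rests on the mean, and the lowest FAC library had 9.07 CPM. The call was lost without the first FAC library (smallest adjusted p of any transcript 0.0589), the second Oleic Acid + FAC library (0.0628) or the third Oleic Acid + FAC library (0.0509), or with the 6 libraries alone (0.911), and the summed counts of CRAMP1 had a log2 fold change of -0.41, so the estimated split of reads between its transcripts is uncertain. Without the first Oleic Acid + FAC library 10 transcripts passed. PLIN2-201 measured 15.2 ± 1.45 CPM in Oleic Acid + FAC and 9.20 ± 0.847 CPM in FAC (SD, n = 3 each), and PDK4-201 9.56 ± 1.40 CPM in Oleic Acid + FAC and 4.57 ± 0.528 CPM in FAC, both protein-coding transcripts that did not pass. For LPCAT1 the transcripts matched to the annotation held 27.4% of its counts. Among them LPCAT1-201 measured 57.7 ± 29.1 CPM in Oleic Acid + FAC and 51.8 ± 11.2 CPM in FAC. The non-coding LPCAT1-203 measured 68.4 ± 64.7 CPM in Oleic Acid + FAC and 11.2 ± 8.96 CPM in FAC, and neither passed. By library LPCAT1-203 had 22.5, 40.2 and 142 CPM in Oleic Acid + FAC and 5.99, 5.97 and 21.5 CPM in FAC, so the third library carried much of its mean. LPCAT1-201 had 85.6, 60.0 and 27.5 CPM in Oleic Acid + FAC.

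Markers of the label were measured in both groups, and their difference was not tested. Of 8 embryonic kidney markers 6 averaged over 1 CPM, and their sum was 129.1 to 142.1 CPM in Oleic Acid + FAC and 135 to 140.3 CPM in FAC. Neuronal lineage markers, which HEK293 is known to express, summed to 206.9 to 280.8 CPM in Oleic Acid + FAC and 179 to 265.6 CPM in FAC, led by NEFL. Of other cell types, fibroblast markers (COL1A1 first) summed to 13.1 to 20.4 CPM in Oleic Acid + FAC and 15.2 to 20.2 CPM in FAC, and macrophage and blood markers (CD68 first, HBB at 0) to 4.77 to 5.82 CPM in Oleic Acid + FAC and 4 to 6.5 CPM in FAC. Adipocyte markers (PLIN1 first, LEP at 0) summed to 0.397 to 0.497 CPM in Oleic Acid + FAC and 0.325 to 1.11 CPM in FAC. Endothelial ones (ESAM first) summed to 1.07 to 1.45 CPM in Oleic Acid + FAC and 0.910 to 1.90 CPM in FAC, and hepatocyte ones (APOA1 first, SERPINA1 and APOB at 0) to at most 0.454 CPM in Oleic Acid + FAC and 0.358 CPM in FAC. In bulk libraries such as these, fewer cells of a type and less RNA per cell cannot be told apart.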

How the data were processed

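RNA was poly-A selected and made into TruSeq libraries, and RNA integrity was 10 in all samples, per the labels. Reads were processed with bcl2fastq 2.19, kallisto 0.46.1 and sleuth 0.30.0 on GRCh38.p12 (hg38), per the submitters' processing notes. The deposited tables hold expected counts, kallisto's estimated counts per gene symbol and per transcript, which were whole numbers, so rounding changed 0 values. The sources used here do not give the annotation release or the strand setting.

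Genes were kept with filterByExpr and tested in edgeR 4.0.16 (R 4.3.3) by a two-sided quasi-likelihood F test, with TMM scaling, a mean per group over all 12 libraries and Benjamini-Hochberg adjustment over all genes tested. Coordinates and transcript lengths came from GENCODE 29, which held 97.1% of the 36459 symbols; 98.7% of the tested genes had a length. Transcripts were matched by unversioned identifier (89.9% of 188753). A count of 0 allows up to 3 counts, 0.158 to 0.213 CPM in a library of the 6, for counting error only, since reads carry no molecular identifiers. Replicates of a group differed by more than counting noise in every pair (chi-square over its degrees of freedom, 12.9 to 122.2).

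Same-numbered Oleic Acid + FAC and FAC libraries deviated together from their group means (correlations across genes of 0.30, 0.40 and 0.51), so the numbers were treated as pairs here. The pairing comes from the data, as the labels only number the replicates. For Oleic Acid and Vehicle the correlations were -0.15, 0.42 and -0.09.

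Alternatives were RLE scaling, DESeq2 1.42.0 (21909 genes, no edgeR filter), limma-voom (limma 3.58.1), no low-count filter, the 6 libraries alone, the replicate block, a per-library length trend removed, both together, and leaving out libraries. Named genes were 9 fixed ones, the 12 highest and 12 lowest by the rule given in the text, up to 3 members per list with an unadjusted p under 0.05 and no overlap, and the most abundant member of each of 7 marker lists; others are named as examples after their values were seen. Some genes that this rule names are left out of the text. The members and the 23 pathway lists were chosen with earlier results of these data known. The steps were tested on simulated counts.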

Additional observations from a re-analysis of the deposited data

How the results depend on the processing

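Genes called in Oleic Acid + FAC against FAC numbered 0 with RLE scaling, limma-voom, no filter, the 6 libraries alone, the replicate block, the length trend removed or any library left out (0 to 0), 1 with DESeq2 on 21909 genes without the low-count filter (PLIN2), 1 with the replicate block after removal of the length trend (LPCAT1), and 4 with the 6 libraries and the replicate block, an alternative chosen after seeing the data (ANXA1, AC091959.3, TECRP1 and AL162417.1, the last at 0 counts in all Oleic Acid + FAC libraries). The cause was not tested. Transcripts called numbered 0 with the 6 libraries alone and 0 to 10 with 1 library left out, against 1 with RLE scaling, no filter or the block. The interaction and Oleic Acid against Vehicle gave 0 under the alternatives run. The log2 fold change turned sign for ACSL3 (0.002 after removal of the length trend, 0.004 with the block too), GPX4 (-0.001 and -0.001) and AIFM2 (-0.06 with the third library of Oleic Acid and of Oleic Acid + FAC left out, and from -0.10 to 0.27 with 1 library left out, below 0 without FAC replicate 2 and without Oleic Acid + FAC replicate 3). Removal of the length trend moved the median of the fatty acid oxidation list from 0.15 to 0.07. Depth limits genes near the 3-count floor such as MT1F.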

Other observations

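The receptors that fatty acids bind were not among the lists, and their values were looked at after the other results were known. PPARA had 16.1, 12.8 and 10.9 CPM in Oleic Acid + FAC and 18.9, 18.5 and 15.3 CPM in FAC, groups that overlapped (log2 fold change -0.40, SE 0.19; -0.28 without the third Oleic Acid + FAC library). PPARD was at -0.03 (-0.07), PPARG at 0.16 (0.07) and their partner RXRA at -0.11 (-0.03), each within about 1 SE of 0.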
